A study of Mus musculus with 12 samples.

Results

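The genes described here are 7 members of the fetal Igf2bp, Lin28 and Hmga programme, namely Igf2bp1, Igf2bp2, Igf2bp3, Lin28a, Lin28b, Hmga1 and Hmga2, of 52550 genes in the count table. They were chosen by symbol, matched to Ensembl identifiers, and all 7 passed the filter on low counts among 18458 genes tested. RNA bound by Ythdf1 or Ythdf2 was recovered with an antibody (RNA immunoprecipitation, IP) and sequenced beside the total RNA it was taken from (input). The groups were P0 retina Ythdf1 IP, P0 retina Ythdf2 IP, P0 retina input, E12.5 cortex Ythdf1 IP, E12.5 cortex Ythdf2 IP and E12.5 cortex input, each with 2 libraries and 12 in all. Every library came from wild-type C57BL/6 mice, from retina at postnatal day 0 (P0) or cortex at embryonic day 12.5 (E12.5), dissociated before the IP. Tissue and age differed together, so their parts in any retina and cortex difference cannot be told apart. The input was the only background, since no library with an unrelated antibody was among the samples. The sources used here do not say whether the 2 libraries of a group came from separate animals, so p-values measure the spread between these libraries, which may be technical.

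Igf2bp1, Igf2bp2 and Igf2bp3 (also called IMP proteins) are RNA-binding proteins of the fetal period that coat mRNAs in cytoplasmic granules, stabilise many of them and have been described as readers of N6-methyladenosine (m6A), the mark that Ythdf1 and Ythdf2 also bind. Lin28a and Lin28b bind the precursors of let-7 microRNAs and block their maturation, and mature let-7 in turn represses Lin28, Hmga2 and the Igf2bp genes through sites in their 3′ untranslated regions (3′UTRs). Hmga1 and Hmga2 are small chromatin proteins that bind AT-rich DNA and are abundant in embryonic stem and progenitor cells, and Hmga2 is known to sustain the self-renewal of young neural stem cells. Ythdf1 is best known for a role in the translation of m6A-marked mRNAs and Ythdf2 for a role in their decay.

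The let-7 seed (bases 2 to 8), which pairs with its targets, is shared by 10 mature let-7 and miR-98 names from 12 loci in the RefSeq records used here (GRCm38.p6). The let-7 gene Mirlet7a-2, which is in the count table, was not among those loci, so the number of loci may be too low. Of the 10 names, 2 mature sequences are shown with the seed in capitals, because the target sites that follow are its complement. The let-7a locus shown lies on chromosome 13 at 48538239 to 48538260 on the minus strand, and miR-98 on the X chromosome at 151913229 to 151913250 on the plus strand.
let-7a-5p: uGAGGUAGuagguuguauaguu
miR-98-5p: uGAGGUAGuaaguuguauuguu

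The complement of the seed, CTACCTC, was searched in the longest annotated coding transcript of each gene (GENCODE M21, GRCm38), on the transcript strand alone because the opposite strand is not in the mRNA. It occurred in the 3′UTR of all 7 members, and 8.503% of 21686 genes with a coding transcript held at least 1. Igf2bp1, Lin28b and Hmga2 had 4 matches each, Lin28a had 2, and Igf2bp2, Igf2bp3 and Hmga1 had 1 each. Long 3′UTRs hold more matches: among genes whose 3′UTR was within 20% of the length of that of Igf2bp1, 33.8% held at least 1, against 8.07% for the length of Hmga1. The site nearest the stop codon in each member is given here, with the match in capitals and 15 bases before it, because it is the feature the members are known to share. A match is a description of the letters and not of binding.
Igf2bp1 (chromosome 11, 3′UTR base 1715): gctgtgcgaagtaaaCTACCTCaa
Igf2bp2 (chromosome 16, 3′UTR base 1313): acacacaaataaaagCTACCTCag
Igf2bp3 (chromosome 6, 3′UTR base 548): tgcatttttactcaaCTACCTCag
Lin28a (chromosome 4, 3′UTR base 909): gcacagcctgttgaaCTACCTCat
Lin28b (chromosome 10, 3′UTR base 36): acccgggcgggaagtCTACCTCat
Hmga1 (chromosome 17, 3′UTR base 801): tcctctgttcacaaaCTACCTCtg
Hmga2 (chromosome 10, 3′UTR base 58): gccgacattcaatttCTACCTCag
An A followed the match, a base that favours targeting, in the sites shown for Igf2bp1, Igf2bp2, Igf2bp3, Lin28a, Lin28b and Hmga2 but not in the site of Hmga1. The microRNAs themselves could not be followed in these libraries: no let-7 or miR-98 precursor record had more than 4 counts in any library.

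GGACT is the most common sequence at which m6A is placed, and it was counted in the same transcripts because m6A is what the antibodies' targets bind. Igf2bp1 had 10 copies, all in its 3′UTR, which is 1.19 per kilobase. The other members ran between 0.46 per kilobase in Igf2bp3 and 1.5 per kilobase in Hmga1. Genes of similar transcript length had medians between 0.957 and 1.04 per kilobase, so the members stood on both sides of the usual density. The copy nearest the stop codon is shown for Igf2bp1 and Hmga2, whose levels in the IPs lay on opposite sides of the retina inputs. The base number given here is that of the A in GGACT, whereas for the let-7 sites it is the first base of the match.
Igf2bp1 (3′UTR base 1209): tgtggtggtcGGACTacaacccaac
Hmga2 (3′UTR base 217): accttgagaaGGACTatattaatca

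The libraries held 19530226 to 40515980 counts, of which 4.65% to 41.1% lay in protein-coding genes. The library labelled cortex input replicate 1 stood apart. It gave 71% of its counts to mitochondrial ribosomal RNA, held 8967 counts of Camk2a and 3984 of Mbp, genes of mature neurons and myelin, and had 145 of Nes and 0 of Emx1. Cortex input replicate 2 held 237 counts of Camk2a, 281 of Mbp, 19126 of Nes and 365 of Emx1. Marker genes of mature brain summed to 3490 CPM in the library labelled cortex input replicate 1, against 21.6 to 71.8 CPM in the other 11 libraries, where CPM are counts scaled to a common library size with edgeR's TMM method. The rank correlation of protein-coding genes between replicates was 0.8 for the cortex inputs and 0.951 to 0.974 for the other groups. Because the library labelled cortex input replicate 1 enters the shared estimate of the spread, the fit to all 12 libraries is set beside a fit to the other 11, called the 11-library fit, and each value is given with the fit it comes from. In that fit cortex input is 1 library, assumed to vary like the other groups, and 20278 genes passed the filter. On the CPM scale 3 counts, taken as the floor, amounted to 0.0283 to 0.356 CPM depending on the library.

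The clearest pattern was a difference between tissues. In the IPs, Igf2bp1, Igf2bp2, Igf2bp3, Lin28b and Hmga2 were lower in all 4 retina libraries than in all 4 cortex libraries, as were 21.2% of all genes tested. Hmga1 was higher in all 4 retina IPs than in all 4 cortex IPs, as were 15.1% of all genes. Lin28a was close to the floor and its libraries overlapped.

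**Figure D1:**
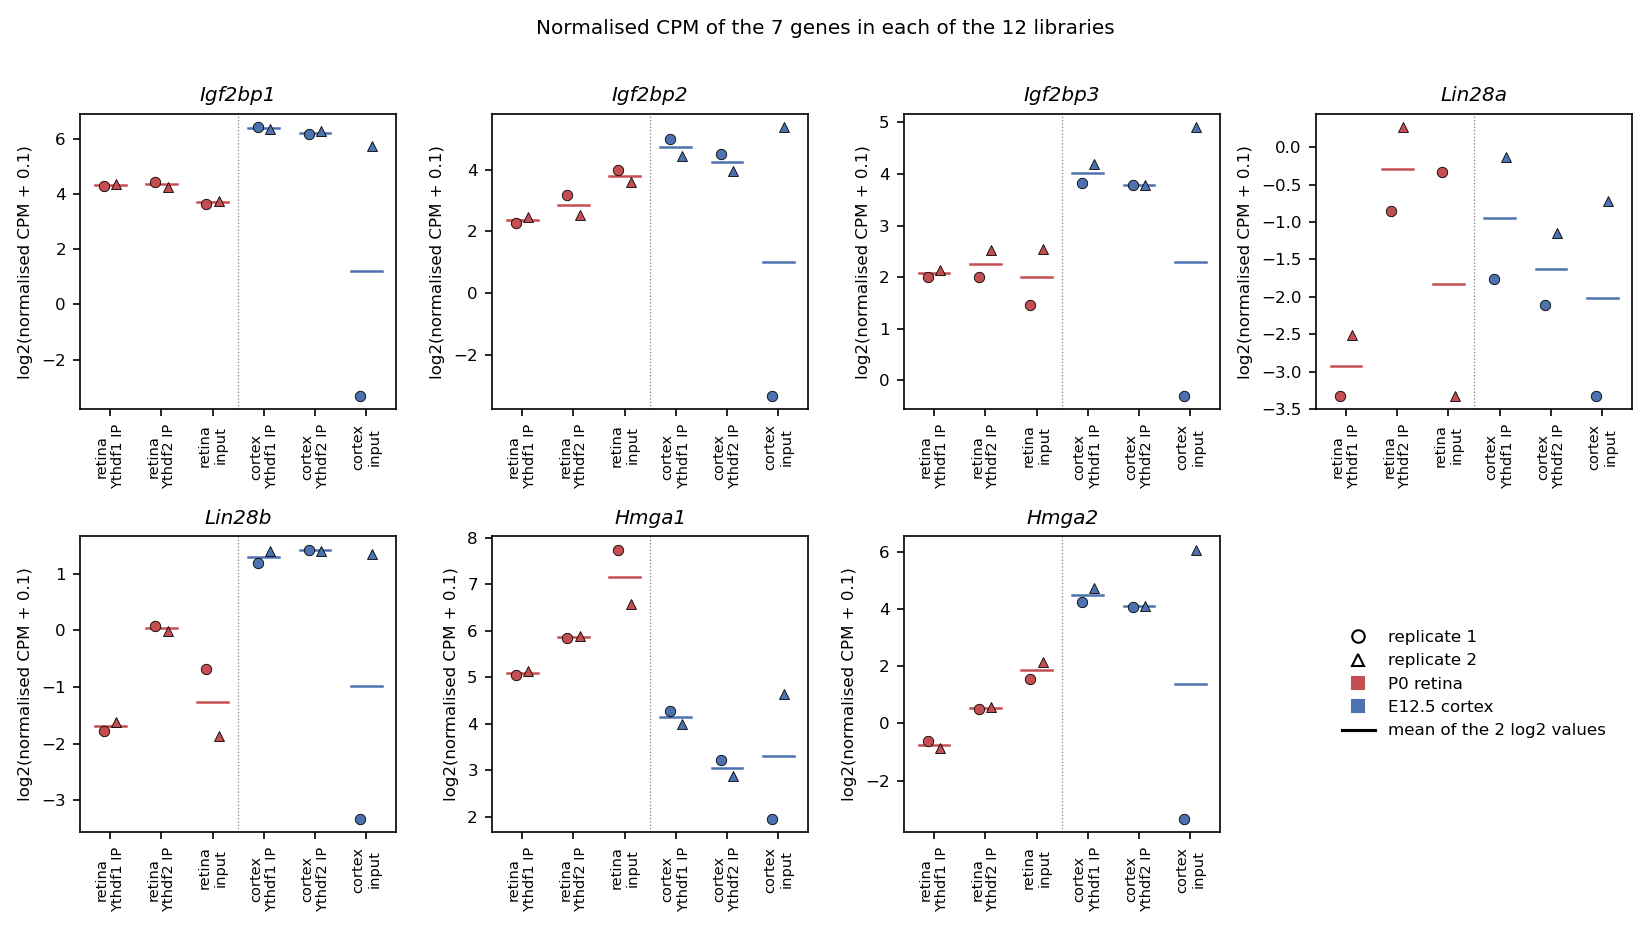
Each panel plots 1 gene as log2(normalised CPM + 0.1) in the 6 groups, with a circle for replicate 1, a triangle for replicate 2, a line for the mean of the 2 log2 values, red for P0 retina and blue for E12.5 cortex. The blue circle at the foot of the cortex input column is the library labelled cortex input replicate 1. The retina IPs sit below the cortex IPs for Igf2bp1, Igf2bp2, Igf2bp3, Lin28b and Hmga2, as for 21.2% of all genes. They sit above the cortex IPs for Hmga1, as for 15.1% of all genes. For Igf2bp2 retina input replicate 1 (15.6 CPM) lies just above cortex Ythdf2 IP replicate 2 (15.5 CPM).

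Igf2bp1 was measured at 19.7 and 20.7 CPM in the retina Ythdf1 IPs, 21.8 and 19.1 in the retina Ythdf2 IPs and 12.5 and 13.4 in the retina inputs. In cortex the Ythdf1 IPs had 85.6 and 81.5 CPM and the Ythdf2 IPs 72.6 and 77.2, with 53.0 in input replicate 2 and 0 counts in the library labelled cortex input replicate 1. Replicates of the IPs lay close together, and all 4 retina IPs lay below all 4 cortex IPs, as did 21.2% of all genes. The log2 fold change of retina over cortex was -2.05 ± 1.34 (SE) in the Ythdf1 IPs and -1.87 ± 1.33 in the Ythdf2 IPs, and neither passed edgeR's quasi-likelihood test (Benjamini-Hochberg adjusted p = 0.318 and 0.412). In the 11-library fit the folds were -2.04 ± 0.30 and -1.89 ± 0.30 and both passed (edgeR adjusted p = 0.000162 and 0.00033). Over all alternatives the adjusted p ran from 0.00015 to 0.811 for the Ythdf1 IPs and from 0.00033 to 0.667 for the Ythdf2 IPs. Because these are bulk samples, fewer cells of a type and less RNA per cell cannot be told apart.

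Igf2bp1 was also the member that was higher with both antibodies than in the input. All 4 retina IPs lay above both retina inputs, as did 18.9% of all genes, and all 4 cortex IPs lay above cortex input replicate 2, as did 25.3%. The difference did not pass the test. With all 12 libraries the log2 fold change over retina input was 0.64 ± 1.30 for Ythdf1 and 0.66 ± 1.30 for Ythdf2 (edgeR adjusted p = 0.818 and 0.879), and in the 11-library fit it was 0.65 ± 0.29 for Ythdf1 and 0.66 ± 0.29 for Ythdf2 (edgeR adjusted p = 0.118 and 0.162). Over both cortex inputs the folds were 1.64 ± 1.32 and 1.49 ± 1.31 (edgeR adjusted p = 0.602 and 0.579), and over cortex input replicate 2 alone they were 0.64 ± 0.36 and 0.49 ± 0.36 (edgeR adjusted p = 0.4 and 0.491). Over the library labelled cortex input replicate 1 alone, which had 0 counts, the fitted folds were 14.4 for both antibodies and are no bound. The adjusted p over the alternatives ran from 0.102 to 1 and 0.0893 to 1 in retina, and from 3.74e-07 to 1 and 2.7e-07 to 0.981 in cortex.

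Igf2bp2, the member that in mouse stays expressed longest in adult tissues, had 4.79 and 5.48 CPM in the retina Ythdf1 IPs, 8.95 and 5.68 in the retina Ythdf2 IPs and 15.6 and 11.9 in the retina inputs. The cortex Ythdf1 IPs had 31.8 and 21.6 CPM, the cortex Ythdf2 IPs 22.8 and 15.5, and cortex input replicate 2 had 41.2, with 0 counts in the library labelled cortex input replicate 1. In both tissues it was lower in every IP than in the input libraries, the one at 0 aside, as were 19.4% of all genes in retina and 28.7% in cortex. Retina over cortex, the log2 fold change was -2.38 ± 1.32 for Ythdf1 IPs and -1.39 ± 1.28 for Ythdf2 IPs (edgeR adjusted p = 0.243 and 0.537). The 11-library fit gave -2.38 ± 0.36 and -1.41 ± 0.35, and both passed (edgeR adjusted p = 0.000197 and 0.00905). The adjusted p ran from 0.000194 to 0.845 and from 0.00905 to 0.791 over the alternatives.

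Igf2bp3 had 3.93 and 4.31 CPM in the retina Ythdf1 IPs, 3.89 and 5.68 in the retina Ythdf2 IPs and 2.64 and 5.74 in the retina inputs. It had 14 and 18.3 CPM in the cortex Ythdf1 IPs, 13.6 and 13.6 in the cortex Ythdf2 IPs and 29.8 in cortex input replicate 2, with 0.712 (6 counts) in the library labelled cortex input replicate 1. The retina IPs overlapped the retina inputs, whereas all 4 cortex IPs were lower than cortex input replicate 2, as were 28.7% of all genes. Across tissues the log2 fold change was -1.97 ± 1.02 in Ythdf1 IPs and -1.51 ± 1.00 in Ythdf2 IPs (edgeR adjusted p = 0.214 and 0.377), and -1.96 ± 0.37 and -1.53 ± 0.37 in the 11-library fit (edgeR adjusted p = 0.00124 and 0.00767). Its alternatives gave adjusted p from 0.00101 to 0.87 and from 0.00718 to 0.671. The gene shares 1529 exonic bases with Malsu1 on the opposite strand. Whether counting used strand is not given in the sources used here. Malsu1 held at most 153 counts in a library, and Igf2bp3 held 76 to 163 in the retina libraries. The effect of the overlap on the counts of Igf2bp3 was not tested.

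Lin28a was at the edge of detection in both tissues. It had 0 and 2 counts in the retina Ythdf1 IPs, 9 and 21 in the retina Ythdf2 IPs and 20 and 0 in the retina inputs. The cortex Ythdf1 IPs held 8 and 15 counts, the cortex Ythdf2 IPs 7 and 37, and the cortex inputs 0 and 46. In CPM the tissues had opposite orders with the 2 antibodies. The Ythdf1 IPs had 0 and 0.0756 in retina against 0.195 and 0.815 in cortex. The Ythdf2 IPs had 0.455 and 1.1 against 0.133 and 0.35. The share of all genes separated in this way was not computed. Because the counts are few and replicates of a group differed widely, no fold is given. Lin28a shares 234 exonic bases with Gm13061 on the opposite strand, which held at most 6 counts in a library.

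Lin28b, the form usually found later in development than Lin28a, had 0.193 and 0.227 CPM in the retina Ythdf1 IPs, 0.961 and 0.893 in the retina Ythdf2 IPs and 0.521 and 0.176 in the retina inputs. These values rest on few reads, 5 to 19 counts per retina library. The cortex Ythdf1 IPs had 2.17 and 2.55 CPM, the cortex Ythdf2 IPs 2.58 and 2.54 and cortex input replicate 2 had 2.46, from 47 to 269 counts, with 0 counts in the library labelled cortex input replicate 1. Cortex libraries other than that one lay within a narrow band. All 4 retina IPs lay below all 4 cortex IPs, as did 21.2% of all genes. The log2 fold change of retina over cortex was -3.47 ± 1.16 in the Ythdf1 IPs and -1.46 ± 1.04 in the Ythdf2 IPs (edgeR adjusted p = 0.0806 and 0.412). With 11 libraries the Ythdf1 IPs gave -3.47 ± 0.61 and passed (edgeR adjusted p = 0.00062), and the Ythdf2 IPs gave -1.48 ± 0.53 and did not (edgeR adjusted p = 0.0563). Over the alternatives the adjusted p ran from 0.00062 to 0.865 and from 0.0563 to 0.66. Lin28b was also higher in both retina Ythdf2 IPs than in both retina inputs. What share of all genes did the same was not computed, so this order has no background to be read against. The log2 fold change was 1.40 ± 1.10 with all 12 libraries and 1.40 ± 0.59 in the 11-library fit. Neither passed (edgeR adjusted p = 0.561 and 0.135), and the adjusted p ran from 0.127 to 1 over the alternatives.

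Hmga2 had the largest log2 fold change between the tissues among the 7 genes in both IPs with either fit and between inputs in the 11-library fit, whereas with all 12 libraries Hmga1 had the larger one between inputs. It had 0.547 and 0.453 CPM in the retina Ythdf1 IPs, 1.31 and 1.37 in the retina Ythdf2 IPs and 2.85 and 4.29 in the retina inputs. In cortex it had 18.8 and 26.7 CPM in Ythdf1 IPs, 16.7 and 17.2 in the Ythdf2 IPs and 66.5 in input replicate 2, against 0 counts in the library labelled cortex input replicate 1. The retina counts ran from 12 to 122 and those of the 5 cortex libraries above 0 from 492 to 6002. Hmga2 shares 140 exonic bases on the opposite strand with 1700006J14Rik, which held at most 57 counts in a library, and the effect was not tested. Retina over cortex, the log2 fold change was -5.50 ± 1.62 in the Ythdf1 IPs and -3.66 ± 1.48 in the Ythdf2 IPs (edgeR adjusted p = 0.0567 and 0.166). In the 11-library fit these were -5.49 ± 0.40 and -3.68 ± 0.36 (edgeR adjusted p = 2.34e-07 and 4.08e-06). The alternatives ran from 3.72e-11 to 0.786 and from 2.84e-06 to 0.492 in adjusted p.

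Hmga1, the other AT-hook gene, had the opposite order. The retina Ythdf1 IPs had 32.8 and 34.8 CPM, the retina Ythdf2 IPs 57.6 and 59.0 and the retina inputs 214 and 95.3. In cortex the Ythdf1 IPs had 19.3 and 15.9 CPM, the Ythdf2 IPs 9.21 and 7.26 and the inputs 3.79 and 24.8. All 4 retina IPs lay above all 4 cortex IPs, as did 15.1% of all genes. The retina inputs, which had the highest values, differed from each other by more than the replicates of any IP. Between inputs the log2 fold change was 3.42 ± 0.77 and passed the test with all 12 libraries (edgeR adjusted p = 0.0247), the only member to do so, where 7.52% of all genes were called. The call was lost when 1 of 7 other libraries was left out: the edgeR adjusted p was 0.0537 without cortex Ythdf1 replicate 2, 0.179 without retina input replicate 1 and 0.0501 without retina input replicate 2. It was 0.0523 and 0.0521 without retina Ythdf1 replicate 1 or 2, and 0.0505 and 0.0507 without retina Ythdf2 replicate 1 or 2. The fold stayed between 1.75 and 5.44 over all 20 alternatives, with adjusted p from 1.09e-05 to 0.562, and was 2.61 ± 0.51 in the 11-library fit (edgeR adjusted p = 0.00197). In the Ythdf2 IPs the fold was 2.82 ± 0.75 (edgeR adjusted p = 0.0508), and 2.81 ± 0.39 in the 11-library fit (edgeR adjusted p = 9.38e-05; 9.38e-05 to 0.532 over the alternatives). In the Ythdf1 IPs it was 0.95 ± 0.71 (edgeR adjusted p = 0.387) and 0.95 ± 0.37 in the 11-library fit (edgeR adjusted p = 0.0642; 0.0628 to 0.949 over the alternatives).

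Hmga1 counts are uncertain in more than 1 respect. The gene shares 102 exonic bases on the opposite strand with AI413582, which held at most 75 counts in a library, and the effect was not tested. The gene Hmga1b on chromosome 11 is a near copy: 1535 of 1538 aligned transcript bases were identical, and how the counting placed reads that match both is not given. Hmga1b had 55.0 and 23.5 CPM in the retina inputs against 0.712 and 4.44 in the cortex inputs, and its log2 fold change between inputs was 3.84 ± 0.72 (edgeR adjusted p = 0.0129). Both records were higher in the retina inputs than in the cortex inputs.

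**Figure D2:**
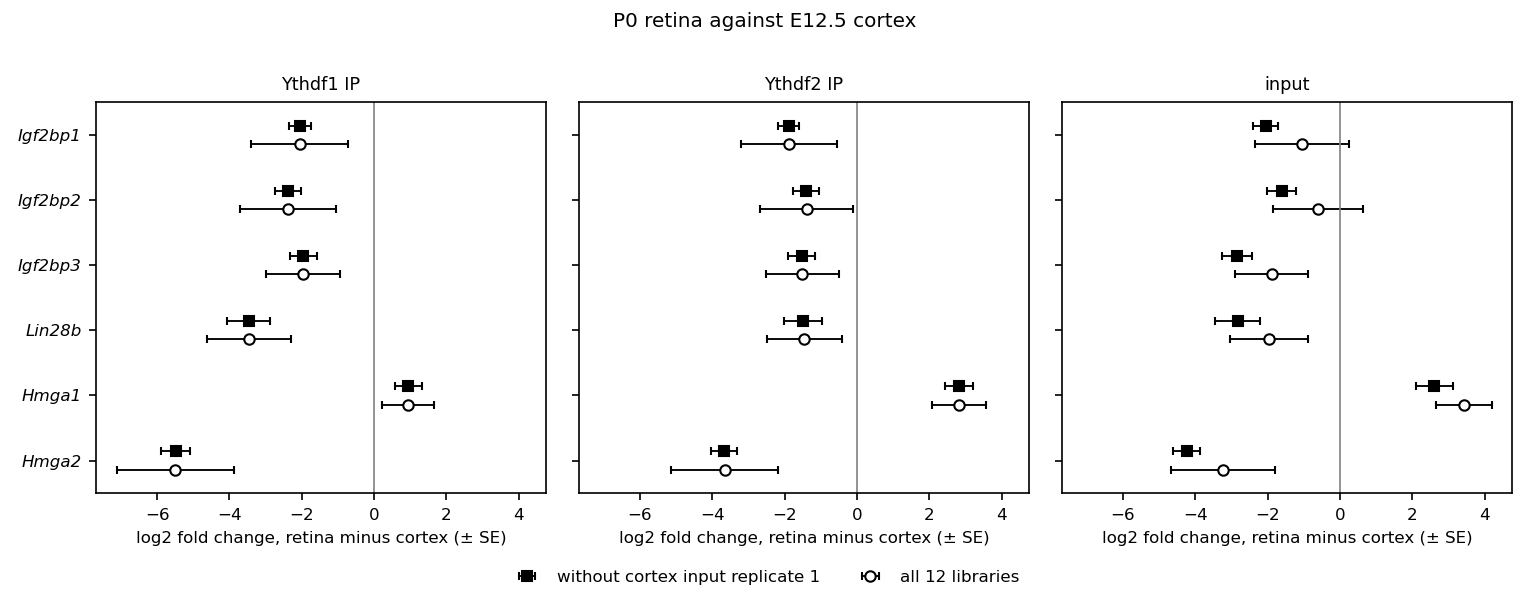
The log2 fold change of P0 retina over E12.5 cortex is plotted with its SE for Ythdf1 IPs, Ythdf2 IPs and inputs, for 6 members (Lin28a is left out as too low), with filled squares for the 11-library fit and open circles for all 12 libraries. In the IPs both fits put each gene at nearly the same fold, such as -5.49 and -5.50 for Hmga2 in Ythdf1 IPs, while the SE is wider with all 12 libraries.

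Counted over the 7 members, 0 passed the test between the Ythdf1 IPs of retina and cortex with all 12 libraries, where 8.79% of all genes were called, and 0 passed between the Ythdf2 IPs, where 5.57% were. For these 2 comparisons the count at an unadjusted p under 0.05 was 2 members each, Lin28b and Hmga2 for Ythdf1 and Hmga1 and Hmga2 for Ythdf2, against 30.1% and 24% of all genes. DESeq2 called 2 members in each, and 20.2% and 14.7% of all genes. The 11-library fit called 5 members between Ythdf1 IPs (28.4% of all genes) and 5 between Ythdf2 IPs (21.3%). The 5 were Igf2bp1, Igf2bp2, Igf2bp3, Lin28b and Hmga2 for Ythdf1, and Igf2bp1, Igf2bp2, Igf2bp3, Hmga1 and Hmga2 for Ythdf2. Leaving out both cortex inputs, which are in neither comparison, also gave 5 and 5, where 33.6% and 25% of all genes were called. The median log2 fold change of all genes was -0.28 for the Ythdf1 IPs and -0.24 for the Ythdf2 IPs, and for the inputs it was -0.15. Among protein-coding genes, to which all 7 members belong, these medians were -0.04, -0.10 and -0.20. The members' folds are to be read against shifts of these sizes. In the 21 alternatives of each comparison, including library totals and DESeq2 size factors, no member other than Lin28a, which was not followed, changed direction.

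Between the inputs, 6 of 7 members were called in the 11-library fit, where 19.9% of all genes were. Hmga2 had a log2 fold change of -4.24 ± 0.38 in retina over cortex (edgeR adjusted p = 4.27e-06), Igf2bp3 of -2.85 ± 0.42 (adjusted p = 0.000262) and Lin28b of -2.83 ± 0.62 (adjusted p = 0.00465). Igf2bp1 had -2.05 ± 0.34 (edgeR adjusted p = 0.000678) and Igf2bp2 -1.61 ± 0.40 (adjusted p = 0.00986). With all 12 libraries the same folds were -3.23 ± 1.43, -1.89 ± 1.01, -1.96 ± 1.08, -1.04 ± 1.30 and -0.60 ± 1.25, and none of them passed. These alternatives' adjusted p ran from 4.27e-06 to 0.832 for Hmga2, 0.000262 to 0.88 for Igf2bp3, 0.00465 to 0.728 for Lin28b, 4.23e-06 to 0.995 for Igf2bp1 and 1.42e-05 to 0.988 for Igf2bp2. With cortex input replicate 2 left out instead, the fold of each of these 5 genes turned positive, since the remaining cortex input held 0 to 6 counts of them.

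Levels of different genes can be compared only per length, for which the authors' FPKM (fragments scaled by exon length and by library size) were used. In the retina inputs Hmga1 was at 74.5 and 36.1 FPKM, Igf2bp2 at 1.51 and 1.24 and Igf2bp1 at 0.89 and 1.04. Below them came Igf2bp3 at 0.221 and 0.524 and Hmga2 at 0.289 and 0.471, whose order differed between the 2 libraries, and then Lin28a at 0.116 and 0 and Lin28b at 0.0384 and 0.0124, whose order differed as well. Hmga1 was the highest of the 7 in both retina inputs.

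The cortex input replicate 2 gave a flatter profile, with 31.7 FPKM for Hmga1, 25.0 for Hmga2, 14.7 for Igf2bp2, 13.9 for Igf2bp1 and 9.29 for Igf2bp3, and only Lin28b at 0.684 and Lin28a at 0.319 far below. In the cortex Ythdf2 IPs Igf2bp1 came first at 13.0 and 23.4 FPKM, followed by Hmga1 at 7.99 and 10.7. Igf2bp2 at 5.56 and 6.39 and Hmga2 at 4.27 and 7.47 differed in order between the 2 libraries, and Igf2bp3 at 2.89 and 4.91 lay below both genes in each. The cortex Ythdf1 IPs had Hmga1 at 11.5 and 5.90 and Igf2bp1 at 10.5 and 6.31, which could not be ordered. FPKM values are not scaled by TMM, so they serve for the order within a library and not for change between libraries.

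**Figure D3:**
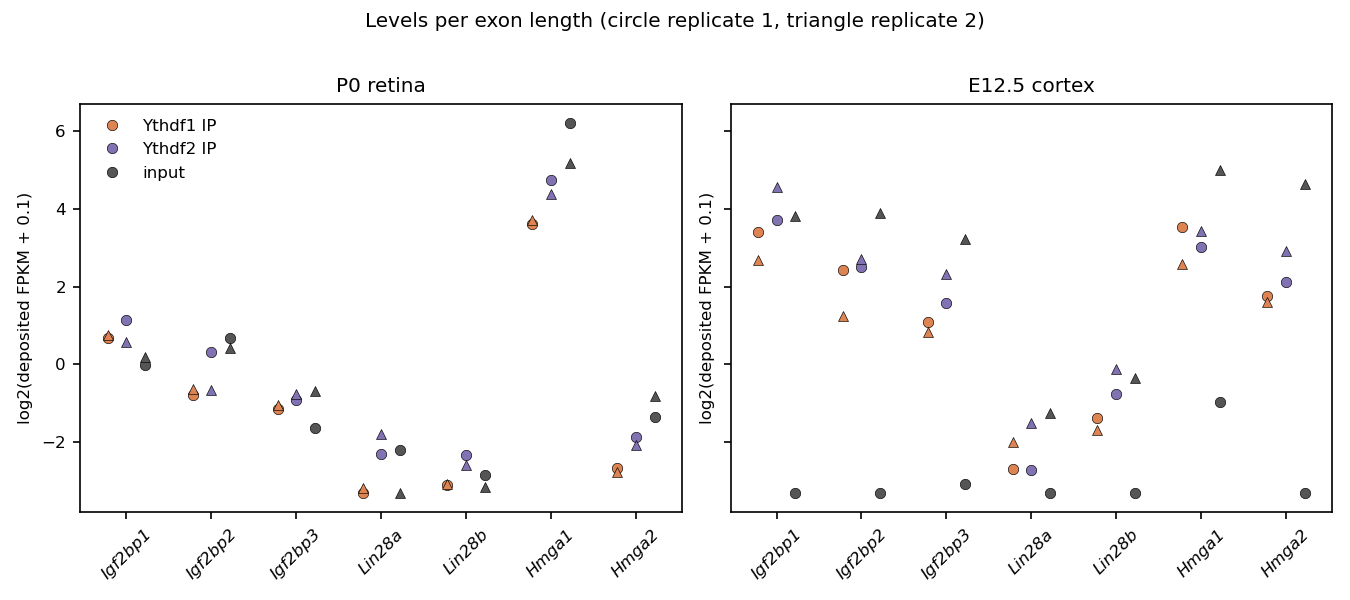
The deposited FPKM of the 7 genes is plotted as log2(FPKM + 0.1) for P0 retina on the left and E12.5 cortex on the right, with circles for replicate 1, triangles for replicate 2, orange for Ythdf1 IPs, purple for Ythdf2 IPs and grey for inputs. Hmga1 stands well above the other 6 in every retina library, while 5 genes lie between 9.29 and 31.7 FPKM in cortex input replicate 2; the grey circles at the foot of the cortex panel are the library labelled cortex input replicate 1.

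The second question was whether the members were over- or under-represented in the IPs relative to the input of their tissue. In retina, Igf2bp2, Hmga1 and Hmga2 were lower in all 4 IPs than in both inputs, as were 19.4% of all genes, and Igf2bp1 was higher. With all 12 libraries 0 of 7 members were called for Ythdf1 over retina input, where 8.8% of all genes were called, and 0 for Ythdf2, where 2.04% were. Hmga1 alone had an unadjusted p under 0.05 for Ythdf1 and no member had for Ythdf2, against 26.8% and 16.5% of all genes. DESeq2 called 1 and 0, and 19.4% and 8.55% of all genes.

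The 11-library fit, which holds all 6 retina libraries, called 3 members for Ythdf1 (27.1% of all genes) and 2 for Ythdf2 (13.5%). For Ythdf1 the log2 fold change of IP over input was -2.82 ± 0.38 for Hmga2 (edgeR adjusted p = 0.000121), -2.18 ± 0.38 for Hmga1 (adjusted p = 0.000658) and -1.41 ± 0.35 for Igf2bp2 (adjusted p = 0.00717). For Ythdf2 it was -1.41 ± 0.35 for Hmga2 (edgeR adjusted p = 0.0143) and -1.40 ± 0.37 for Hmga1 (adjusted p = 0.0187), and Igf2bp2 at -0.91 ± 0.35 did not pass (adjusted p = 0.101). A fit to the 6 retina libraries alone called the same numbers, 3 and 2, where 37.6% and 20.2% of all genes were called. The adjusted p over the alternatives ran from 6.6e-05 to 1 for Hmga2, 0.000469 to 0.986 for Hmga1 and 0.00367 to 1 for Igf2bp2 in Ythdf1, and from 0.0113 to 1 for Hmga2 and 0.016 to 1 for Hmga1 in Ythdf2. Their direction was the same in all 22 alternatives.

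**Figure D4:**
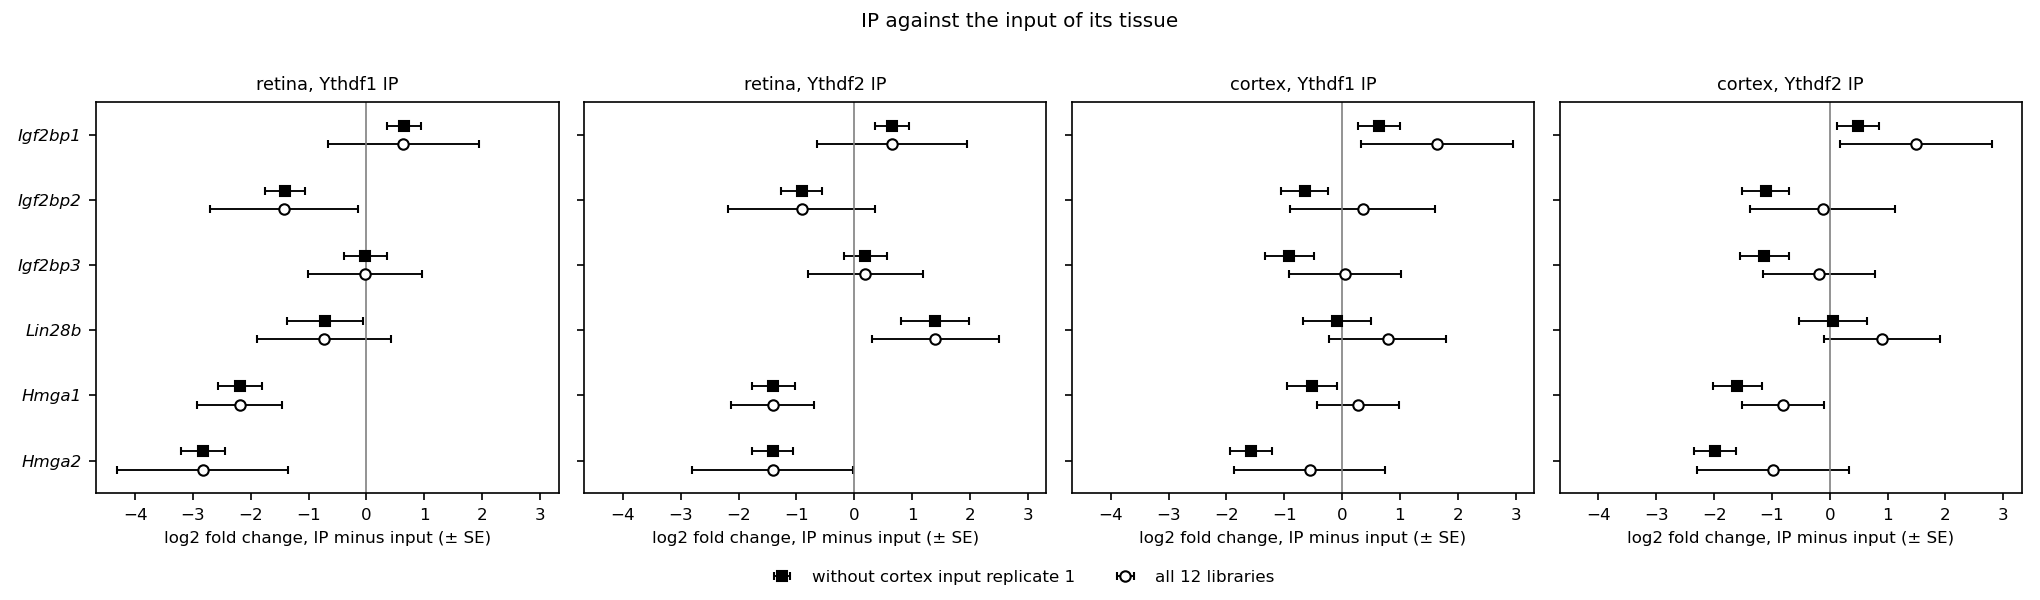
The log2 fold change of each IP over the input of its tissue is plotted with its SE for 6 members, with filled squares for the 11-library fit and open circles for all 12 libraries. In retina the 2 fits differ only in the SE, with Hmga2 at -2.82 and Hmga1 at -2.18 for Ythdf1, whereas in cortex the fold differs with the input library used, at -1.57 in the 11-library fit and -0.56 with all 12 libraries for Hmga2 and Ythdf1.

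In cortex the largest fold also belonged to Hmga2 when cortex input replicate 2 was the only input. Hmga2 had a log2 fold change of -1.57 ± 0.36 for Ythdf1 (edgeR adjusted p = 0.0254, where 3.72% of all genes were called) and -1.98 ± 0.36 for Ythdf2 (adjusted p = 0.00394, where 7.48% were). Hmga1 had -0.52 ± 0.44 for Ythdf1 (edgeR adjusted p = 0.606) and -1.60 ± 0.43 for Ythdf2 (adjusted p = 0.0326). Igf2bp2 at -0.64 ± 0.41 and -1.11 ± 0.40 and Igf2bp3 at -0.91 ± 0.42 and -1.13 ± 0.42 did not pass (edgeR adjusted p from 0.108 to 0.451). With both cortex inputs these folds were 0.36 ± 1.25 and -0.12 ± 1.25 for Igf2bp2 and 0.05 ± 0.97 and -0.19 ± 0.97 for Igf2bp3, so that both signs for Ythdf1 turned with the inputs used (edgeR adjusted p from 0.936 to 0.994 and from 0.945 to 0.976 for Ythdf1 and Ythdf2). Igf2bp2, Igf2bp3, Hmga1 and Hmga2 were lower in all 4 cortex IPs than in cortex input replicate 2, as were 28.7% of all genes. With both cortex inputs 0 members were called for either antibody, where 0.00542% and 0.0108% of all genes were, and 0 members had an unadjusted p under 0.05, against 15.6% and 19.3% of all genes. DESeq2 called 0 members as well, and 7.3% and 12% of all genes. These cortex folds rest on 1 input library, and the fold of Hmga1 for Ythdf1 was 0.28 ± 0.71 with both. Over the alternatives the adjusted p ran from 3.4e-06 to 1 for Hmga2 and Ythdf1, 4.12e-06 to 0.984 for Hmga2 and Ythdf2, and 0.0326 to 0.984 for Hmga1 and Ythdf2. They ran from 6.26e-06 to 1 and 8.43e-06 to 1 for Igf2bp2, and from 0.000135 to 1 and 0.000165 to 0.995 for Igf2bp3.

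The difference in IP over input between tissues was tested directly. It called 0 members for Ythdf1, where 0.00542% of all genes were called, and 0 for Ythdf2, where 0.0325% were, and 0 again for both in the 11-library fit (3.52% and 0.917%). Hmga1 for Ythdf1 was the only member with an unadjusted p under 0.05 with all 12 libraries, at -2.47 ± 1.01 in retina minus cortex (edgeR adjusted p = 0.261), against 16.6% and 11.3% of all genes for Ythdf1 and Ythdf2. Leaving out each library in turn gave Hmga1 differences from -4.568 to -1.665 for Ythdf1, so the size depends on the libraries used. DESeq2 called 0 members for either, and 6.22% and 2.44% of all genes. For Hmga2 the difference was -1.25 ± 0.54 for Ythdf1 and 0.56 ± 0.51 for Ythdf2 in the 11-library fit, and neither passed (edgeR adjusted p = 0.214 and 0.688).

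Between the antibodies, Hmga2 was lower in the retina Ythdf1 IPs than in the retina Ythdf2 IPs, with a log2 fold change of -1.40 ± 0.40 (edgeR adjusted p = 0.0493 in the 11-library fit, where 6.02% of all genes were called; 0.036 to 1 over the alternatives). With all 12 libraries it was -1.41 and did not pass (edgeR adjusted p = 0.75), where 0% of all genes were called by edgeR and 141 were higher and 522 lower by DESeq2. These Hmga2 folds rest on few reads, 17 and 12 counts with the Ythdf1 antibody against 26 and 26 with the Ythdf2 antibody. Lin28b had -2.13 ± 0.63 in the 11-library fit (edgeR adjusted p = 0.0567; 0.0553 to 1 over the alternatives), from 6 and 6 counts with the Ythdf1 antibody against 19 and 17 with the Ythdf2 antibody. In cortex 0 members were called between the antibodies in either fit, where 0% of all genes were called with all 12 libraries and 0.705% with 11. With all 12 libraries 0 members had an unadjusted edgeR p under 0.05 between the antibodies in either tissue, against 12% of all genes in retina and 4% in cortex, and DESeq2 called 0 in both. Hmga1 was the member farthest from 0 in cortex apart from Lin28a, at 1.08 ± 0.37 in the 11-library fit (edgeR adjusted p = 0.3).

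The members' levels were compared with each other across libraries. Over the 10 libraries other than the cortex inputs, Pearson's r of log2 CPM was 0.939 between Igf2bp1 and Igf2bp3, 0.917 between Igf2bp2 and Hmga2, 0.91 between Igf2bp1 and Lin28b and 0.839 between Igf2bp1 and Hmga2. Hmga1 ran against Igf2bp1 at -0.894 and against Hmga2 at -0.603. These are descriptions over 4 cortex and 6 retina libraries, so they mostly restate the difference between the tissues. The gene with the most similar pattern to Hmga1 among 5861 protein-coding genes was its copy Hmga1b, at r = 0.984 over 12 libraries. For Lin28b it was Nhlh1, a transcription factor of newborn neurons, at 0.972, and both stayed first over the other 11 libraries. Ticrr for Igf2bp1 (0.984), Grb10 for Igf2bp2 (0.982), Dis3 for Igf2bp3 (0.982) and Sept11 for Hmga2 (0.977) came first over 12 libraries and were replaced by Efnb1, Ezh2, Usp7 and Top1 over 11.

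The wider Lin28 and let-7 pathway was examined in 17 genes of let-7 processing and action, all of which passed the filter. In retina over cortex, 1 was higher and 1 lower between Ythdf1 IPs, 0 higher and 2 lower between Ythdf2 IPs, and 0 were called between inputs. Of all genes, 4.4% were higher and 4.39% lower between Ythdf1 IPs, 3.14% and 2.43% between Ythdf2 IPs, and 3.51% and 4.01% between inputs. Tut4, a terminal uridylyltransferase that Lin28a recruits to let-7 precursors, had a log2 fold change of -3.12 ± 0.63 in the Ythdf1 IPs (edgeR adjusted p = 0.0153) and -2.34 ± 0.61 in the Ythdf2 IPs (adjusted p = 0.0466). Tut7, its relative, had -2.23 ± 0.51 in the Ythdf2 IPs (edgeR adjusted p = 0.0285), and Ago4, an Argonaute, had 2.35 ± 0.57 in the Ythdf1 IPs (adjusted p = 0.0297). The medians of the list were -0.57 for Ythdf1 IPs, -0.99 for Ythdf2 IPs and -0.23 for inputs, against -0.28, -0.24 and -0.15 over all genes. In the 11-library fit the counts were 2 higher and 4 lower between Ythdf1 IPs, 1 and 7 between Ythdf2 IPs, and 0 and 5 between inputs. In that fit 13.1% of all genes were higher and 15.2% lower between Ythdf1 IPs, 10.1% and 11.2% between Ythdf2 IPs, and 8.82% and 11.1% between inputs. Between inputs the lower ones then included Dicer1 at -2.93 ± 0.38 (edgeR adjusted p = 8.68e-05), Xpo5 at -2.33 ± 0.42 (adjusted p = 0.00124) and Drosha at -1.59 ± 0.36 (adjusted p = 0.00576), the nucleases and exporter that make microRNAs.

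Textbook let-7 targets other than the members, 24 genes all tested, went both ways. Between inputs 2 were higher and 2 lower in retina than in cortex. Ccnd1, cyclin D1, had a log2 fold change of 4.66 ± 0.82 (edgeR adjusted p = 0.00954) and Plagl2, a zinc finger factor, 2.68 ± 0.46 (adjusted p = 0.00883). Ccnd2, cyclin D2, had -6.51 ± 1.09 (edgeR adjusted p = 0.00784) and Thbs1, a matrix protein, -7.02 ± 1.62 (adjusted p = 0.0262). The same opposition of the cyclins was called in the Ythdf1 IPs, at 3.83 ± 0.79 for Ccnd1 and -6.69 ± 1.09 for Ccnd2, and in the Ythdf2 IPs, at 4.77 ± 0.82 and -6.50 ± 1.09. The list's medians were -0.28 between inputs, -0.03 between Ythdf1 IPs, where 2 were higher and 3 lower, and 0.06 between Ythdf2 IPs, where 1 was higher and 2 lower. In the same fit 4.4% of all genes were higher and 4.39% lower between Ythdf1 IPs, and 3.14% and 2.43% between Ythdf2 IPs. With 11 libraries, 2 were higher and 5 lower between inputs, 5 and 4 between Ythdf1 IPs, and 3 and 6 between Ythdf2 IPs. Of all genes, 3.51% were higher and 4.01% lower between inputs with all 12 libraries, and 8.82% and 11.1%, 13.1% and 15.2%, and 10.1% and 11.2% in these 3 comparisons with 11.

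Among 21 mRNAs and partner proteins linked to the Igf2bp proteins, all tested, 0 were higher and 5 lower in retina Ythdf1 IPs than in cortex Ythdf1 IPs, 0 and 1 between Ythdf2 IPs and 0 and 0 between inputs. Igf2, the growth factor whose mRNA gave the family its name, had a log2 fold change of -5.97 ± 0.97 between Ythdf1 IPs (edgeR adjusted p = 0.00606). Elavl4 had -4.07 ± 0.74 (adjusted p = 0.0104) and Elavl2 -3.84 ± 0.73 (edgeR adjusted p = 0.0128), both neuronal RNA-binding proteins. Elavl2 was also lower between Ythdf2 IPs, at -2.81 ± 0.70 (edgeR adjusted p = 0.0393). The medians were -1.92, -0.80 and -0.55 for Ythdf1 IPs, Ythdf2 IPs and inputs, against -0.28, -0.24 and -0.15 over all genes, of which 4.39%, 2.43% and 4.01% were lower. The 11-library fit called 1 higher and 13 lower between Ythdf1 IPs, 2 and 4 between Ythdf2 IPs, and 0 and 4 between inputs, where 15.2%, 11.2% and 11.1% of all genes were lower.

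In retina Ythdf1 IPs over inputs, 0 genes of the same list were higher and 4 lower, where 3.57% and 5.23% of all genes were. The list's median was -1.25, against 0 over all genes. The 11-library fit called 0 higher and 12 lower, where 13.7% and 13.4% of all genes were called. With all 12 libraries Ybx1, a cold-shock RNA-binding protein, had -3.84 ± 1.00 (edgeR adjusted p = 0.0367) and Gap43, a growth cone protein, -1.82 ± 0.44 (adjusted p = 0.0294). For Ythdf2 over retina input, 0 were higher and 1 was lower, Gap43 at -2.19 ± 0.45 (edgeR adjusted p = 0.0321), where 0.282% and 1.76% of all genes were called. With 11 libraries the counts were 0 and 5, where 5.82% and 7.64% of all genes were called.

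Other high mobility group and fetal chromatin genes numbered 19, all tested. Between inputs, 2 were higher and 2 lower in retina than in cortex, where 3.51% and 4.01% of all genes were. Hmgn3 had a log2 fold change of 1.85 ± 0.45 (edgeR adjusted p = 0.0304) and Hmgn2 3.37 ± 0.86 (adjusted p = 0.0388), both nucleosome-binding proteins, while the imprinted genes Dlk1 and Peg3 had -4.51 ± 1.04 (edgeR adjusted p = 0.0261) and -2.48 ± 0.63 (adjusted p = 0.0377). In retina Ythdf1 IPs over inputs, 0 were higher and 2 lower (3.57% and 5.23% of all genes), Hmgn3 at -3.17 ± 0.47 (edgeR adjusted p = 0.0115) and Hmgn2 at -3.40 ± 0.87 (adjusted p = 0.0345). For Ythdf2 over retina input Hmgn3 was the 1 called, at -2.97 ± 0.47 (edgeR adjusted p = 0.0138), where 0.282% of all genes were higher and 1.76% lower. Medians were -0.67 for Ythdf1 and -0.48 for Ythdf2 over retina input, and -0.02, -0.91 and -0.37 for retina over cortex in inputs, Ythdf1 IPs and Ythdf2 IPs. Between tissues the Ythdf1 IPs had 0 higher and 2 lower, and the Ythdf2 IPs 0 and 1, where 4.39% and 2.43% of all genes were lower. The 11-library fit called 2 higher and 7 lower between inputs, 1 and 9 between Ythdf1 IPs, and 0 and 4 between Ythdf2 IPs, where 11.1%, 15.2% and 11.2% of all genes were lower. In that fit, 2 were higher and 6 lower for Ythdf1 over retina input and 1 and 6 for Ythdf2, where 13.4% and 7.64% of all genes were lower. In cortex, 0 were higher and 3 lower for Ythdf1 and 0 and 7 for Ythdf2 in that fit, where 1.55% and 2.17% of all genes were called for Ythdf1 and 2.48% and 5% for Ythdf2, with Hmgb3 at -3.19 ± 0.38 and -3.20 ± 0.38 (edgeR adjusted p = 0.000702 and 0.000389).

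Summed markers of several cell types differed between the tissues. The 10 genes of neural progenitors and dividing cells summed to 196 to 388 CPM in the retina libraries, against 576 to 849 in cortex and 48.4 in the library labelled cortex input replicate 1. Of these sums, Nes gave 100 to 267 CPM and Mki67 121 to 470 in cortex apart from that library. In retina they gave 3.72 to 8.36 and 8.95 to 84.1. Sums without these genes were not compared. Between inputs the list's median log2 fold change was 0.27 with all 12 libraries and -0.51 in the 11-library fit. Over all genes it was -0.15 and -0.175. With all 12 libraries 1 of the 10 genes was higher and 1 lower, where 3.51% and 4.01% of all genes were. Between Ythdf1 IPs with all 12 libraries, 1 of them was higher and 2 were lower, where 4.4% and 4.39% of all genes were, and with 11 libraries 2 were higher and 6 lower, where 13.1% and 15.2% were. In the fit to all 12 libraries Nes, an intermediate filament of neural progenitors, was lower in retina, at -4.05 ± 0.98 (edgeR adjusted p = 0.0289). Hes5, a Notch target, was higher in that fit, at 2.64 ± 0.74 (adjusted p = 0.0484). Meningeal and mesenchymal genes (7) summed to 2.15 to 9.27 CPM in retina and 45 to 117 in cortex, with 31.1 in the library labelled cortex input replicate 1, and 5 of the 7 were lower between Ythdf1 IPs, or 6 with 11 libraries. Erythroid genes (6) summed to at most 1.06 CPM in retina, where 3 to 5 of them were at 0, and to 200 to 896 in cortex, and all 6 were lower between Ythdf1 IPs in both fits. Endothelial genes (5) summed to 38.7 to 158 CPM in retina, against 13.4 to 30.0 in cortex and 96.4 in the library labelled cortex input replicate 1, but they were split. Between Ythdf1 IPs 1 was higher in retina, Kdr at 4.22 ± 0.57 (edgeR adjusted p = 0.00272), and 2 were lower, among them Cdh5 at -4.47 ± 0.67 (adjusted p = 0.00423), and with 11 libraries 2 were higher and 3 lower. The 12 retina genes summed to 292 to 398 CPM in retina and 0 to 22.5 in cortex. The part of these cell types in the members' tissue difference was not tested.

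**Figure D5:**
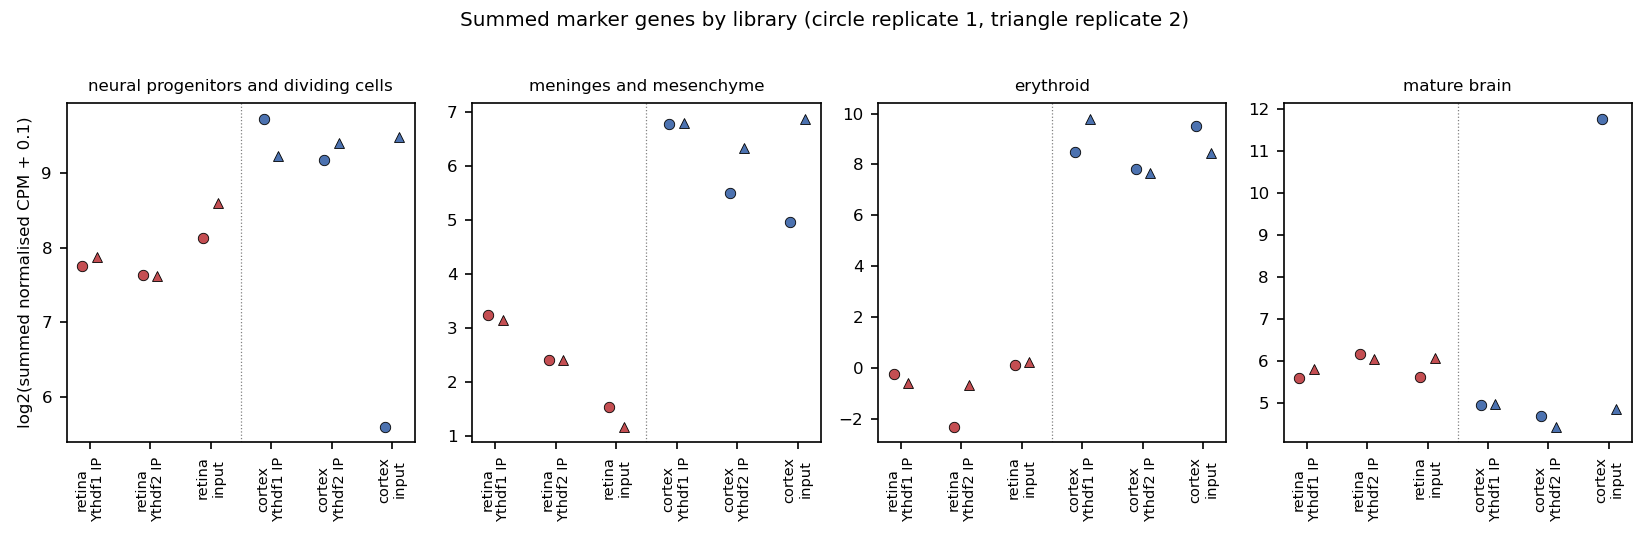
Summed normalised CPM of 4 marker lists is plotted as log2(sum + 0.1) by library, with a circle for replicate 1, a triangle for replicate 2, red for P0 retina and blue for E12.5 cortex. The sums of progenitor, mesenchymal and erythroid genes sit lower in all 6 retina libraries than in the cortex IPs. The blue circle at 3490 CPM in the mature brain panel is the library labelled cortex input replicate 1.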

How the data were processed

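Per the labels, RNA was recovered with the EZ-Magna RIP kit, and stranded TruSeq libraries were made from 100 ng of RNA. Per the submitters' processing notes, STAR 2.5, HTSeq (version not given in the sources used here) and GRCm38 were used. The authors deposited a count table of whole reads per gene and a table of FPKM per gene. FPKM were used for order within a library and for limma alternatives, and the counts for every other test.

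Genes were kept by filterByExpr (minimum count 10, minimum total 15) and scaled by TMM (factors 0.234 to 3.17). One edgeR 4.0.16 quasi-likelihood model (robust, R 4.3.3) with 1 mean per group and 6 residual degrees of freedom gave 11 two-sided comparisons, each coded retina minus cortex, IP minus input or Ythdf1 minus Ythdf2. P-values were adjusted by Benjamini-Hochberg over all genes tested and called under 0.05. SE was taken as |log2 fold change| over the root of the F statistic. The code was tested on simulated data. The floor of 3 counts covers counting error only.

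Alternatives were DESeq2 1.42.0 (size factors, Wald test), library totals, protein-coding genes alone, no filter, a replicate block, fits within a tissue, limma 3.58.1 on log2(FPKM + 1) and log2(FPKM + 0.1), and each library left out; a fit without both cortex inputs was added after seeing the data. The members and the lists were chosen with earlier results of these data known. The rule for named genes took the 7 members, up to 3 higher and 3 lower called genes per list and comparison, and the 3 genes most alike in log2(CPM + 0.5), of which the first is given; Hmga1b and overlapping genes were added as copies or neighbours. Sequences came from GENCODE M21 and RefSeq. Values of some genes that the rule named are not reported here.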

Additional observations from a re-analysis of the deposited data

How the results depend on the processing

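Over 46 gene and comparison pairs, 917 of 972 alternatives kept the direction and did not lose a call, 10 lost one and 45 turned the sign. Of the 917, 89 gained a call that the fit to all 12 libraries did not make. Hmga1 between inputs was the only pair called in that fit, so a call could be lost only there. It stayed called in 10 of its 20 alternatives. Numbers of members called are given with the share of all genes called under the same setting. Between Ythdf1 IPs of retina and cortex, 0 became 1 with DESeq2 size factors (9.4% of all genes), 2 with the DESeq2 Wald test (20.2%), and 5 with no filter (9.1%) or with no cortex input libraries (33.6%). For Ythdf2 IPs, 0 became 1 with DESeq2 size factors (6.23%) or protein-coding genes alone (7.43%), 2 with the Wald test (14.7%), 3 with no filter (6.98%) and 5 with no cortex inputs (25%). For inputs, 1 became 0 with library totals (1.94%), log2(FPKM + 1) (0.553%) and log2(FPKM + 0.1) (0.851%), and 3 with no filter (8.38%). For Ythdf1 over retina input the number was 1 with the Wald test (19.4%), 2 with no filter (6.84%) and 3 in the retina alone (37.6%) or with no cortex inputs (31.8%), and for Ythdf2 it was 2 in the retina alone (20.2%) or with no cortex inputs (15.9%). With no cortex inputs 1 member was called between the retina antibodies (6.98%). The cause of these changes was not tested.

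Leaving out each library gave 0 to 5 members between Ythdf1 IPs of retina and cortex (0.695% to 28.8% of all genes) and between Ythdf2 IPs (0.738% to 21.6%), and 0 to 6 for inputs (0.664% to 29%). It gave 0 to 3 for Ythdf1 (0% to 27.1%) and 0 to 2 for Ythdf2 (0% to 13.5%) over retina input, and 0 to 6 (0.00488% to 25.1%) and 0 to 5 (0.00488% to 28.2%) over cortex input. The difference in enrichment gave 0 to 6 for Ythdf1 (0% to 25.6%) and for Ythdf2 (0% to 21.6%), the retina antibodies 0 to 1 (0% to 6.26%) and the cortex antibodies 0 to 0 (0% to 0.705%). The high ends came from leaving out a cortex input. With replicate 2 left out the only cortex input is replicate 1, which holds 0 counts of 5 members, so the folds fitted with it alone are no bounds. In retina over cortex input, leaving out each library gave log2 folds of -2.05 to 11.9 for Igf2bp1, -1.61 to 11.98 for Igf2bp2, -2.85 to 2.62 for Igf2bp3, -2.94 to 6.70 for Lin28b and -4.24 to 10.03 for Hmga2. Over cortex input it gave -1.57 to 12.6 for Hmga2, -0.52 to 2.15 for Hmga1, -0.64 to 12.8 for Igf2bp2 and -0.91 to 4.43 for Igf2bp3 with Ythdf1, and -1.98 to 12.2 for Hmga2, -1.60 to 1.14 for Hmga1, -1.11 to 12.4 for Igf2bp2 and -1.13 to 4.28 for Igf2bp3 with Ythdf2. For the difference in enrichment with Ythdf2 it gave -13.7 to 0.56 for Hmga2.

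Other reversals, all in log2 folds that were not called with all 12 libraries, were these. With library totals Hmga1, Igf2bp2 and Igf2bp3 for Ythdf1 over cortex input were -0.89, -0.97 and -1.34. Hmga1 between cortex antibodies was -0.12 with library totals and -0.14 and -0.17 on the FPKM scales. Igf2bp3 for Ythdf1 over cortex input was -0.058 with no filter and -0.19 with log2(FPKM + 1). Igf2bp2 and Igf2bp3 for Ythdf2 over cortex input were 0.81 and 0.57 with log2(FPKM + 1) and 2.32 and 1.87 with log2(FPKM + 0.1), Igf2bp2 was 0.0025 with the Wald test and Igf2bp3 was 0.31 with the replicate block. With log2(FPKM + 1), Hmga1 and Hmga2 for Ythdf2 over cortex input were 0.59 and 0.39; with log2(FPKM + 0.1) they were 1.21 and 1.86, Hmga2 for Ythdf1 was 1.02 and Igf2bp2 between inputs was 0.27. Igf2bp3 for Ythdf1 over retina input was 0.13 with the replicate block, 0.0025 and 0.059 on the FPKM scales, -0.47 to 0.65 with 1 retina input left out and 0.048 without retina Ythdf1 replicate 1. Igf2bp3 for Ythdf2 over retina input was -0.27 to 0.86 with 1 retina input left out and -0.10 without retina Ythdf2 replicate 2, and Lin28b for Ythdf1 was -1.30 to 0.25 with 1 retina input left out.

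With the replicate block, 1 member was called between inputs and 0 in the other 10 comparisons, as without it. Replicate differences of the groups correlated between -0.0762 and 0.0582. Whether libraries of the same number came from the same preparation is not known. These correlations cannot decide it, since the noise of each library could hide a pairing. In retina Lin28a and Lin28b held at most 21 counts in a library, and Hmga2 held 12 to 26 in the retina IPs, which limits the precision of their folds.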
